A study of Rattus norvegicus with 18 samples.

Results

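Expression of the enzymes that make nitric oxide and prostaglandins was followed in rat nucleus pulposus cells in culture, which come from the soft centre of the spinal disc. The genes were chosen by symbol: Nos2, Ptgs1, Ptgs2, Ptges, Ptges2, Ptges3 and Ptgis. Of these 7 symbols, 6 matched a row among the 33898 genes of the deposited count table, and all 6 were among the 14184 genes with enough counts to be tested. Ptgis, the prostacyclin synthase, matched no row by that symbol and was not analysed here.

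Nos2, the inducible nitric oxide synthase, makes nitric oxide from arginine and is switched on by cytokines and microbial products. Prostaglandins are made from arachidonic acid in steps: the cyclooxygenases Ptgs1 (constitutive) and Ptgs2 (inducible) form prostaglandin H, and a terminal synthase then converts it. Ptges is the inducible membrane-bound prostaglandin E synthase, usually coupled to Ptgs2. Ptges2 is a membrane-associated and Ptges3 a cytosolic form, and Ptges3 is better known as p23, a co-chaperone of Hsp90. In the disc, nitric oxide and prostaglandin E have been studied as mediators of inflammation, pain and loss of matrix.

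In the deposited annotation, whose build is not given, Nos2 (ENSRNOG00000057443) lies on chromosome 10 at 66189786 to 66313190, plus strand, and Ptgs2 (ENSRNOG00000002525) on chromosome 13 at 67351087 to 67359335, plus strand. Ptges (ENSRNOG00000006320, 9727408 to 9738752, minus strand), Ptges2 (ENSRNOG00000014050, 11424099 to 11431402, plus strand) and Ptgs1 (ENSRNOG00000007415, 15560712 to 15582344, plus strand) are all on chromosome 3. Ptges3 (ENSRNOG00000002642) is on chromosome 7 at 2479311 to 2497013, plus strand. The model of Nos2 overlaps Lgals5 on the opposite strand, which had 3 counts over the 18 libraries.

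The cells came from Sprague Dawley rats aged 8 weeks and were grown in serum-containing medium, plated for a day and then given a compound for 24 hours. There were 3 libraries each of PDS, PDS controls, Phen-DC3, Phen-DC3 controls, Braco-19 and Braco-19 controls, 18 in all. PDS, Phen-DC3 and Braco-19 are compounds known to bind G-quadruplexes and stabilise them, folded structures of guanine-rich DNA or RNA, and their doses are not in the labels. The titles of the third control group name no compound, so it was paired with Braco-19 by elimination. What the control cells received is not in the labels, nor whether the libraries of a group came from separate cultures or animals, so p-values measure the spread between these libraries, which may be technical. In bulk RNA, fewer cells of a type and less RNA per cell cannot be told apart.

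Library totals ran from 15715121 to 18369443 counts. Of 15 nucleus pulposus markers matched, Krt19, Noto, Shh and Tbxt were at 0 in every library, and Pax1 had the highest level, at 76.1 to 111 CPM over the group means (CPM, counts scaled to library size). Acan, the disc's main proteoglycan, had 0.22 CPM or less in the PDS and Phen-DC3 sets, 1.74 ± 0.58 CPM with Braco-19 and 2.85 ± 0.57 CPM in Braco-19 controls. Col1a1, a collagen of fibroblasts and the annulus, had 1110 to 1410 CPM in the PDS and Phen-DC3 sets, 5270 CPM with Braco-19 and 4850 CPM in Braco-19 controls. Ptprc and Cd163, which mark leukocytes and macrophages, were at 0 in every library, and the summed macrophage list was carried by Cd14. The 2 Braco-19 groups also stood apart in composition. Genes over 5000 bp took 24.2 ± 0.95% of counts with Braco-19 and 25.3 ± 0.18% in its controls, against group means of 7.99 to 9.98% in the PDS and Phen-DC3 sets.

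Because the compounds bind G-quadruplexes, the promoters of the genes were read for the guanine pattern that can fold into one. RefSeq promoter sequences of rat build GRCr8, from 250 bases before to 50 bases after the start, were matched for Ptgs1, Ptgs2, Ptges and Ptges3, 4 of the 7 symbols. The pattern searched was 4 runs of at least 3 G separated by 1 to 7 bases, on either strand. Of the promoters shown, Ptgs2 and Ptges belong to genes that rose under PDS, and Ptgs1 to a gene that was not called under any compound. They are written 5′ to 3′ on the gene's own strand, with capitals marking the pattern. Ptgs1 is at chr3:39981169-39981468 on the plus strand, Ptgs2 at chr13:64713813-64714112 on the plus strand and Ptges at chr3:34586938-34587237 on the minus strand.
Ptgs2: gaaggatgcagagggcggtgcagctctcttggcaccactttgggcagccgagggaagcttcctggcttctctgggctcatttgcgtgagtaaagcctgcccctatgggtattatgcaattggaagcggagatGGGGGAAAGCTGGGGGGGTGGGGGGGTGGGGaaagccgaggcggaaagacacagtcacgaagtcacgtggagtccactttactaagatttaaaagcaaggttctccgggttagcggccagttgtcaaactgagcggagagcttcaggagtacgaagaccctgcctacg
Ptges: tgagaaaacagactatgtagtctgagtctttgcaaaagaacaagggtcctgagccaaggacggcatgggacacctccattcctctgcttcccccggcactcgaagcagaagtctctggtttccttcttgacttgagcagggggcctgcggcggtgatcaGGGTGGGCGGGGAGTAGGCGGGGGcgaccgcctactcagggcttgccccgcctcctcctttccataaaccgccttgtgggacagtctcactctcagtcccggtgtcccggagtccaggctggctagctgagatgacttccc
Ptgs1: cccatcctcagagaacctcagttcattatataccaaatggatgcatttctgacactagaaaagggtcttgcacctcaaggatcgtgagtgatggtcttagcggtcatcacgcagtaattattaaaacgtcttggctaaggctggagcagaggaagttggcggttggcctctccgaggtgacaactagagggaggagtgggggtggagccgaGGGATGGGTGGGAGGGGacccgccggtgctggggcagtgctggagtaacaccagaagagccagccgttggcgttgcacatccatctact

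Each of the 4 promoters matched held the pattern, on the gene's own strand. It spanned 31 bases in Ptgs2, from 118 to 88 bases before the start, and 24 bases in Ptges, from 91 to 68 bases before it. In Ptgs1 it spanned 17 bases, from 39 to 23 bases before the start, and in Ptges3 27 bases, from 148 to 122 bases before it. G and C bases made up 56.7% of the Ptgs2 promoter, 59.7% of Ptges, 54.3% of Ptgs1 and 71.7% of Ptges3, against a median of 51.7% over all promoters. The part of this content in the matches was not tested. Among all 33469 rat promoters of the same 300 bases, 5563 (16.6%) held the pattern on either strand. Genes that rose under PDS (Ptgs2 and Ptges) and genes that were not called under any compound (Ptgs1 and Ptges3) both held it. The Ptgs2 promoter also held CACGTG, an E-box found in 6.42% of promoters, from 55 to 50 bases before its start. GGGCGG, a GC box found in 33.1% of promoters, was in Ptgs2, Ptges and Ptges3, and in Ptges and Ptges3 copies lay within the quadruplex pattern. TATAAA (14.2% of promoters) and the NF-kB consensus (4.18%) matched in none of the 4, and TGACG (21.2%) matched in Ptges3, each searched on both strands. These are matches of letters, not measured sites.

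**Figure D1:**
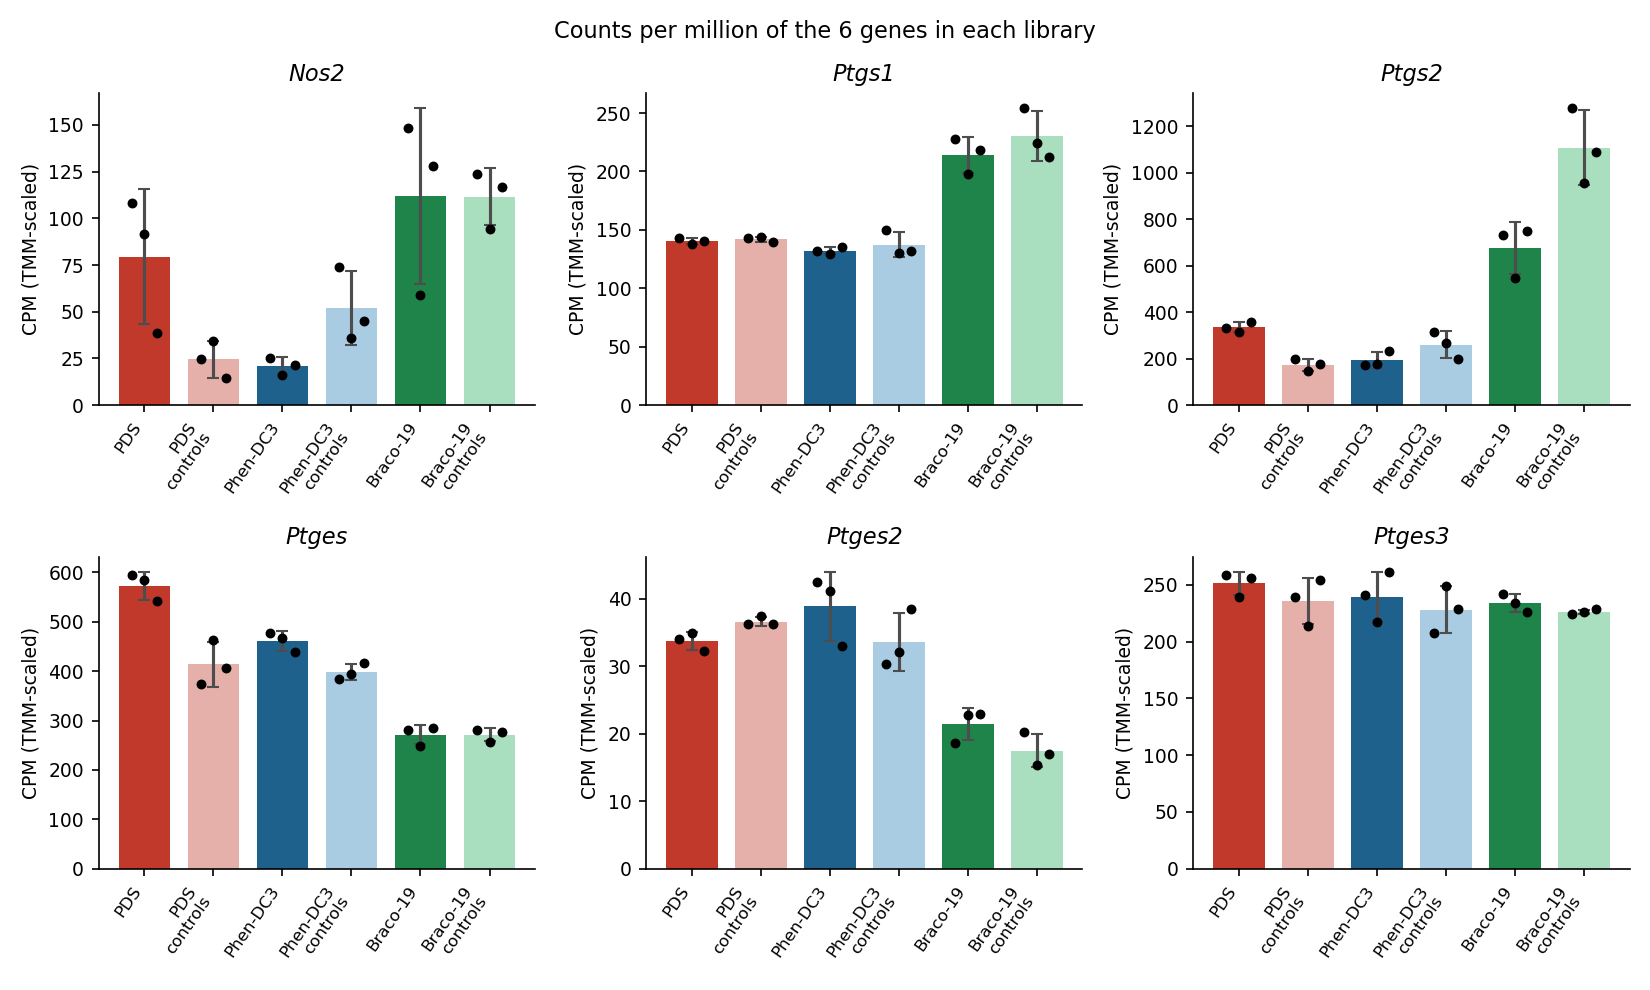
Level of each of the 6 genes in every library, as CPM on TMM-scaled library sizes. Points are libraries, bars are means and error bars are SD over 3 libraries. Ptgs2 and Ptges stand higher with PDS than in PDS controls, Ptgs1 and Ptges3 stay close to their controls in each pair, and Nos2 spreads widely within groups.

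The genes differed widely in level. As CPM per kilobase of gene model (RPKM), Ptges was the highest of the 6 in 5 of the 6 groups, with 457 ± 22.4 RPKM with PDS and 331 ± 36.3 RPKM in PDS controls. In Braco-19 controls Ptgs2 was highest, at 253 ± 36.7 RPKM. Nos2 was the lowest in the PDS and Phen-DC3 sets, at 3.17 to 11.9 RPKM over the group means, and Ptges2 the lowest with Braco-19 (9.92 RPKM) and in its controls (8.10 RPKM). The spread between libraries also differed by gene. The biological coefficient of variation in the model was 0.372 for Nos2, higher than for 95.2% of genes tested, and 0.153 for Ptgs2. It was 0.0706 to 0.099 for the other 4 genes, so the model asks for a larger change in Nos2 than in Ptges or Ptgs1 at the same level.

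The first question was whether PDS changed these enzymes. The inducible members rose: Nos2, Ptgs2 and Ptges, all 3 with every PDS library above every PDS control library, as for 17.7% of all genes tested. The constitutive cyclooxygenase Ptgs1 and the other E synthases, Ptges2 and Ptges3, were not called. Called here means an adjusted p under 0.05 in edgeR's quasi-likelihood test, with Benjamini-Hochberg adjustment over all 14184 genes. The 3 of 6 called higher compare with 5.13% of all genes tested that were called higher (8.09% in either direction). All calls over genes split into 728 higher and 420 lower, and under upper-quartile scaling into 575 higher and 527 lower. The median log2 fold change of the 6 was 0.28, against 0.02 for all genes.

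Nos2 had 108, 91.9 and 38.7 CPM in the 3 PDS libraries, against 24.5, 34.5 and 14.5 CPM in PDS controls. The lowest PDS library lay just above the highest control library, and the other 2 were well above it. The log2 fold change was 1.70 ± 0.46 (SE, adjusted p = 0.0413, 95% interval 0.70 to 2.70), a 3.25-fold higher mean level of 79.6 ± 36.3 against 24.5 ± 10.0 CPM (SD, n = 3 each). Of 14 alternative settings it passed in 7, with log2 fold changes of 1.41 to 2.03 and adjusted p of 0.00191 to 0.153. It was lost on leaving out any 1 of the PDS controls or PDS replicate 1 or 2, without the count filter (adjusted p = 0.0662), and when the PDS libraries and their controls were fitted alone (adjusted p = 0.153).

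Ptgs2 had 333, 316 and 359 CPM with PDS, against 197, 146 and 177 CPM in PDS controls. The PDS libraries were close together and all lay far above the controls. The log2 fold change was 0.95 ± 0.18 (adjusted p = 0.00489), or 1.94-fold. Ptgs1, its constitutive counterpart, had 143, 138 and 141 CPM with PDS and 143, 144 and 140 CPM in PDS controls. These ranges overlapped, with a log2 fold change of -0.02 ± 0.07 (adjusted p = 0.917, 95% interval -0.17 to 0.14). Within single libraries, the ratio of Ptgs2 to Ptgs1 per length was therefore 1.49, 1.47 and 1.63 with PDS, against 0.885, 0.649 and 0.813 in PDS controls. Ptgs2 was the more abundant of the pair in each PDS library and the less abundant in each PDS control library. The ratio was 0.835, 0.883 and 1.1 with Phen-DC3, against 1.35, 1.31 and 0.962 in Phen-DC3 controls. So Ptgs2 was also the more abundant in some control libraries.

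Ptges, the inducible E synthase, had 594, 584 and 541 CPM with PDS, against 373, 463 and 407 CPM in PDS controls. All PDS libraries were above all controls, and the log2 fold change was 0.47 ± 0.08 (adjusted p = 0.000546), or 1.38-fold. It was the smallest of the 3 changes and had the smallest p. Ptgs2 and Ptges stayed called in all 14 alternatives, at log2 fold changes of 0.84 to 1.06 and 0.40 to 0.56.

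The remaining E synthases gave small differences. Ptges2 had 34.0, 35.0 and 32.3 CPM with PDS and 36.3, 37.5 and 36.2 CPM in PDS controls. Every PDS library was lower, as for 15.6% of all genes, yet the log2 fold change of -0.12 ± 0.12 was not called (adjusted p = 0.567). Ptges3 had 259, 240 and 256 CPM with PDS and 239, 214 and 255 CPM in PDS controls, which overlapped (0.09 ± 0.08, adjusted p = 0.505). Reads of Ptges3 are uncertain to the extent that they were shared with the similarly named Ptges3l (204 to 573 counts a library) and Ptges3l1 (7 to 28 counts). Such sharing was not tested. The ratio of Ptges to Ptges2 per length was 29.2 ± 0.76 with PDS and 19.5 ± 1.75 in PDS controls.

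**Figure D2:**
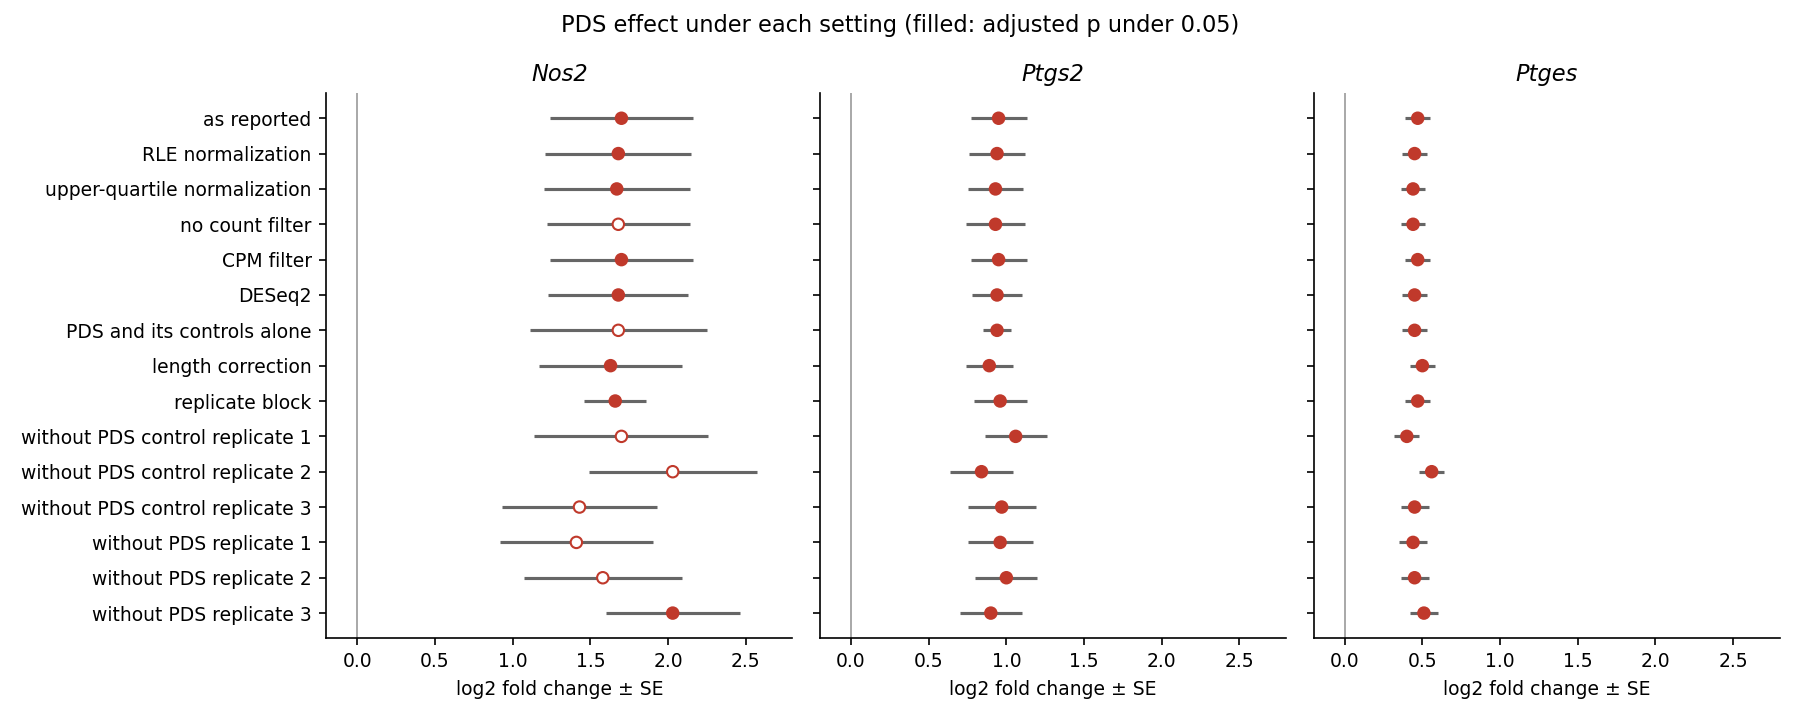
Log2 fold change of PDS over PDS controls for the 3 genes called, under the reported setting and 14 alternatives. Bars are SE and filled points have an adjusted p under 0.05. Ptgs2 and Ptges are filled throughout, while Nos2 is open in 7 of the 14 alternatives with its point always above 1.4.

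Genes around these enzymes were read from lists of their pathways. Under PDS, 3 of 6 genes tested for the transport and breakdown of prostaglandins fell and none rose, against 2.96% of all genes called lower. The list's median log2 fold change was -0.35. Hpgd, the dehydrogenase that starts the inactivation of prostaglandins, fell to 8.42 ± 1.36 CPM with PDS, against 16.3 ± 4.17 CPM in PDS controls (log2 fold change -0.96 ± 0.21, adjusted p = 0.00879). Slco2a1, the transporter that takes prostaglandins up into cells, fell to 4.22 ± 0.89 CPM, against 7.70 ± 0.35 CPM in controls (-0.87 ± 0.21, adjusted p = 0.0128). Ptgr1, a reductase of prostaglandin metabolites, fell to 41.6 ± 3.92 CPM, against 62.2 ± 6.11 CPM (-0.58 ± 0.11, adjusted p = 0.00203). The Ptgr1 call held in all 14 alternatives. The Hpgd call was lost without PDS controls replicate 3 (adjusted p = 0.054) or PDS replicate 2 (0.0515), and the Slco2a1 call without PDS replicate 1 (0.0547) or 3 (0.0823).

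Of 6 receptor genes tested under PDS, 1 fell: Ptgfr, the receptor of prostaglandin F, at 11.6 ± 1.10 CPM with PDS and 18.8 ± 0.77 CPM in PDS controls (-0.70 ± 0.12, adjusted p = 0.00111). The E receptors Ptger1 (15.2 ± 1.64 CPM with PDS, 17.0 ± 1.42 CPM in controls) and Ptger4 (1.48 ± 0.67 CPM with PDS, 1.12 ± 0.08 CPM in controls) were not called. Of 9 phospholipase and related genes tested, which free arachidonic acid from membranes, edgeR called 0, with 3 at an unadjusted p under 0.05 and 1 called by DESeq2. Pla2g4a, the cytosolic phospholipase, had 88.8 ± 3.96 CPM with PDS and 70.9 ± 9.61 CPM in PDS controls (adjusted p = 0.106). Of the terminal synthases of other prostanoids, Ptgds, Hpgds and Tbxas1 had at most 2 counts in any library. The 3 others tested were not called by either tool and had no unadjusted p under 0.05.

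On the nitric oxide side, Nos2 was the only synthase of the family present at more than a few counts: Nos1 had at most 2 and Nos3 at most 6 counts in any library. Nosip, which binds nitric oxide synthases, the 2 genes tested that receive the nitric oxide signal and the 3 tested of the lipoxygenase branch were not called by edgeR or DESeq2 under PDS, with 0 at an unadjusted p under 0.05. Of 14 genes that supply arginine and the cofactor tetrahydrobiopterin, 2 rose and 2 fell under PDS. Over all genes, 5.13% were called higher and 2.96% lower. Ass1, which remakes arginine from citrulline, rose to 4.69 ± 0.54 CPM with PDS, against 2.37 ± 0.40 CPM in PDS controls (0.98 ± 0.21, adjusted p = 0.00447). Arg1, an arginase that consumes the same substrate, rose by 0.53 ± 0.09 (adjusted p = 0.000441), while the other arginase, Arg2, fell by 0.92 ± 0.21 (adjusted p = 0.00936). Arg2 lost its call without PDS replicate 1 (adjusted p = 0.0501). Ddah2, which degrades methylarginines that inhibit nitric oxide synthases, fell by 0.63 ± 0.13 (adjusted p = 0.00535). Gch1, the first enzyme of tetrahydrobiopterin synthesis, was not called, at 33.7 ± 1.31 CPM with PDS and 31.4 ± 1.39 CPM in PDS controls.

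Another 27 genes tested are known inducers of Nos2 and Ptgs2 or part of their signalling. Under PDS 3 rose and 1 fell, against 5.13% of all genes called higher and 2.96% lower. At an unadjusted p under 0.05 there were 13 of 27, a rule whose share over all genes is not given here. DESeq2 called 6 of the 27, and 1403 of all genes tested. The list's median log2 fold change was 0.14. Jun, a subunit of the AP-1 transcription factor, rose to 73.8 ± 3.72 CPM with PDS, against 38.0 ± 2.93 CPM in PDS controls (0.96 ± 0.10, adjusted p = 5.46e-06). Irf7, an interferon-induced transcription factor, rose by 0.72 ± 0.10 (adjusted p = 0.000104), and the cytokine Il6 by 1.11 ± 0.22 (adjusted p = 0.00241). Tnfrsf1a, the main receptor of TNF, fell by 0.24 ± 0.06 (adjusted p = 0.017), a call kept in 10 of 14 alternatives. The cytokines that classically induce Nos2 were nearly absent as transcripts: Ifng had 0 counts in every library, Tnf at most 1 and Il1b at most 7. None of the 9 Hsp90 partners of Ptges3 was called by edgeR or DESeq2, and 2 had an unadjusted p under 0.05.

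Markers of other cells were read beside these results. The summed macrophage markers were 113 to 122 CPM with PDS and 109 to 114 CPM in PDS controls. Smooth muscle markers, led by Acta2, summed to 339 to 369 CPM with PDS and 336 to 373 CPM in controls, and fibroblast markers to 2740 to 2940 CPM with PDS and 2880 to 3250 CPM in controls. Endothelial markers, nearly all from Egfl7, summed to 18.3 to 22.6 CPM with PDS and 26.0 to 31.8 CPM in controls, with Cdh5 at 0 in every library. In these 4 lists edgeR called 0 genes under PDS, with 3 at an unadjusted p under 0.05 and 1 called by DESeq2. Of 9 nucleus pulposus markers tested, Ca12 (1.89 ± 0.43) and Cdh2 (0.40 ± 0.10) rose and Col2a1 fell by 0.82 ± 0.16. In that list 5 had an unadjusted p under 0.05 and DESeq2 called 4. The part of cell composition in the changes of Nos2, Ptgs2 and Ptges was not tested beyond these values.

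**Figure D3:**
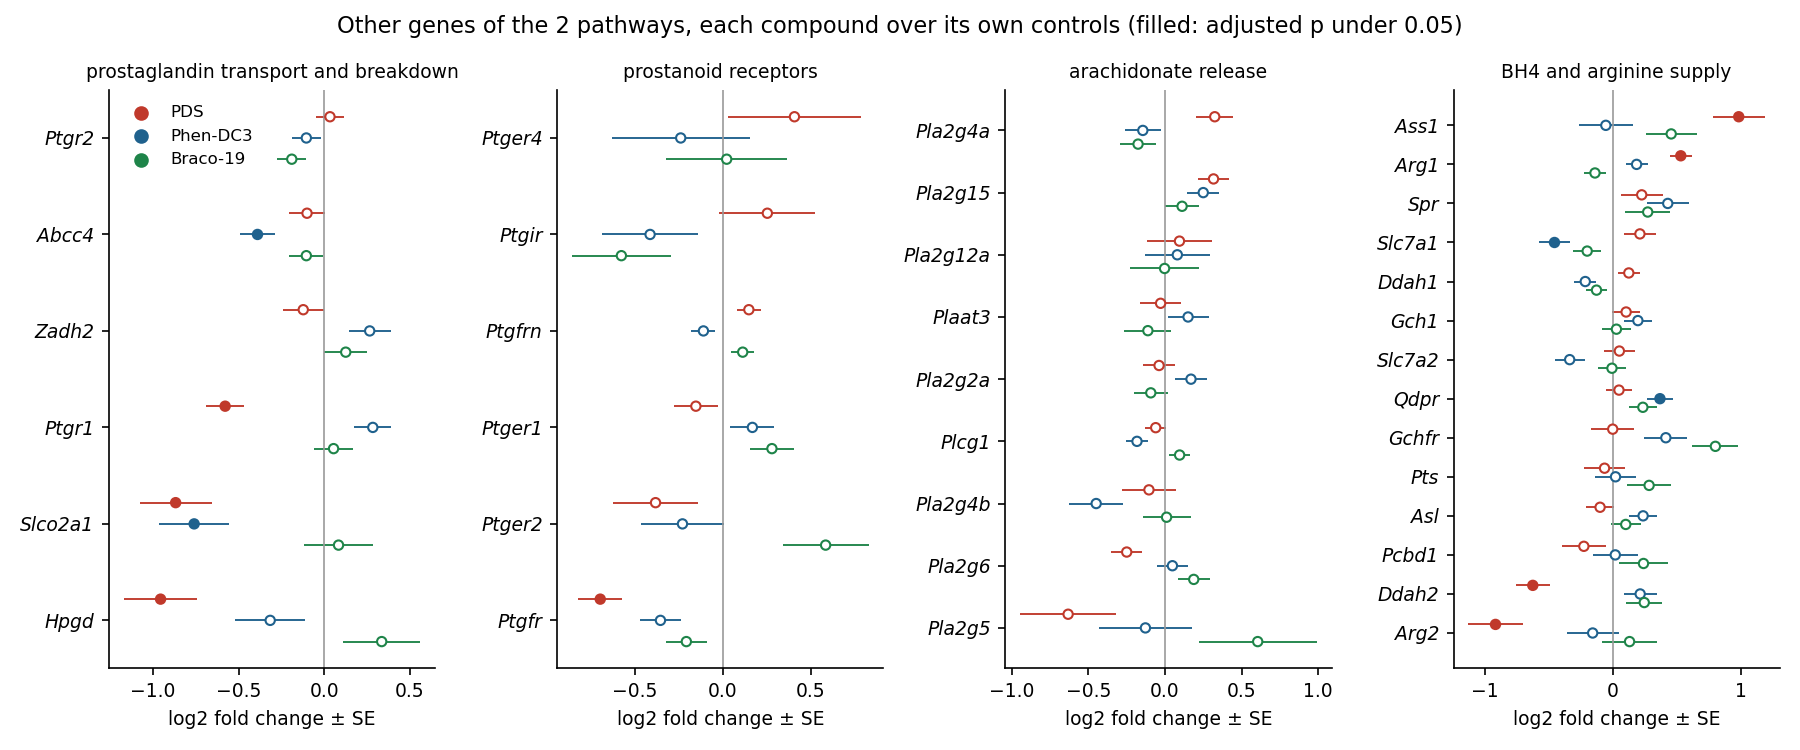
Log2 fold change of each compound over its own controls for genes of prostaglandin transport and breakdown, prostanoid receptors, arachidonate release and arginine and cofactor supply. Bars are SE and filled points have an adjusted p under 0.05. Under PDS, Hpgd, Slco2a1, Ptgr1 and Ptgfr are filled to the left of 0, and none of the Braco-19 points is filled.

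Phen-DC3 gave another picture. Nos2 and Ptgs2 were lower on average with Phen-DC3 than in its controls, and Ptges higher, but edgeR called 0 of the 6 genes, where 8.01% of all genes were called. At an unadjusted p under 0.05 there were 3 of 6, a rule whose share over all genes is not given here. DESeq2 called 2, Nos2 and Ptgs2, both lower, and called 2056 of all 14184 genes. Nos2 had 25.5, 16.4 and 21.7 CPM with Phen-DC3, against 74.2, 36.2 and 45.1 CPM in Phen-DC3 controls. Every Phen-DC3 library was below every control, as for 11.9% of all genes, and the log2 fold change was -1.29 ± 0.47 (adjusted p = 0.0977, 95% interval -2.31 to -0.28). Ptgs2 had 172, 178 and 232 CPM with Phen-DC3 and 314, 267 and 198 CPM in its controls. Here the groups overlapped through 1 library on each side, with a log2 fold change of -0.42 ± 0.18 (adjusted p = 0.142).

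Ptges had 478, 468 and 438 CPM with Phen-DC3, against 385, 393 and 417 CPM in its controls. All Phen-DC3 libraries were higher, as for 10.1% of all genes, at a log2 fold change of 0.21 ± 0.08 (adjusted p = 0.0834). The control library that stood nearest to Phen-DC3 was replicate 3 for both Ptgs2 and Ptges. Without it, Ptgs2 was called lower (-0.58, adjusted p = 0.0281) and Ptges higher (0.25, adjusted p = 0.0426). Calls over all 14184 genes then also rose, from 1136 to 3336. Ptges was also called without Phen-DC3 replicate 3 (0.25, adjusted p = 0.0469), where 2685 of all genes were called. These gained calls came with a rise over all genes and are not particular to Ptgs2 and Ptges. Replicates of the Phen-DC3 controls differed more than those of any other group, with a median SD over genes of 0.127 in log2 CPM, against 0.0658 to 0.106 in the other 5 groups. Over all genes, the Phen-DC3 log2 fold changes correlated with gene length at Spearman's rho of -0.443. Genes over 5000 bp took 7.99 ± 0.52% of counts with Phen-DC3 and 9.98 ± 0.74% in its controls. Nos2 has the longest model of the 6 genes and Ptges the shortest. None of Nos2, Ptgs2 and Ptges was called after a length correction, and Ptges ran from 0.09 to 0.25 over 14 alternatives. The part of length was not tested further.

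Ptgs1 had 132, 129 and 135 CPM with Phen-DC3 and 149, 130 and 132 CPM in its controls. Ptges2 had 42.5, 41.2 and 33.0 CPM with Phen-DC3 and 30.4, 32.1 and 38.5 CPM in controls, and Ptges3 had 241, 218 and 261 CPM with Phen-DC3 and 208, 249 and 229 CPM in controls. All 3 overlapped, with log2 fold changes of -0.05 ± 0.07, 0.21 ± 0.12 and 0.07 ± 0.08 in that order. Their 95% intervals ran from -0.21 to 0.10 for Ptgs1, from -0.03 to 0.45 for Ptges2 and from -0.09 to 0.23 for Ptges3. Of the pathway genes, Slco2a1 fell to 5.82 ± 1.30 CPM with Phen-DC3, against 9.88 ± 2.63 CPM in its controls (-0.76 ± 0.21, adjusted p = 0.0321). Abcc4, an exporter of prostaglandins, fell by 0.39 ± 0.11 (adjusted p = 0.0317). The arginine transporter Slc7a1 fell by 0.46 ± 0.12 (adjusted p = 0.0319) and Qdpr, which recycles tetrahydrobiopterin, rose by 0.37 ± 0.11 (adjusted p = 0.039). Each of these 4 calls was lost in 7 of 14 alternatives, including the correction for gene length and the fit of Phen-DC3 and its controls alone. Of the receptors and inducers edgeR called 0, with 1 of 6 and 7 of 27 at an unadjusted p under 0.05 and 1 and 2 called by DESeq2. The fibroblast marker Pdgfra fell by 0.31 ± 0.08 (adjusted p = 0.0289) beside these genes. Summed markers were 108 to 118 CPM with Phen-DC3 and 95.4 to 107 CPM in its controls for macrophages, 369 to 416 CPM with Phen-DC3 and 322 to 359 CPM in controls for smooth muscle, and 26.1 to 33.7 CPM with Phen-DC3 and 14.9 to 27.7 CPM in controls for endothelium. Fibroblast markers summed to 2850 to 3190 CPM with Phen-DC3 and 3190 to 3300 CPM in its controls. Of 8 tested, 6 had an unadjusted p under 0.05, a rule whose share over all genes is not given here, and DESeq2 called 2. The part of these markers in the values of Nos2, Ptgs2 and Ptges was not tested.

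With Braco-19, Ptgs2 was lower than in its controls in every library, and the other 5 genes overlapped. The libraries had 732, 548 and 750 CPM of Ptgs2 with Braco-19, against 1277, 958 and 1090 CPM in Braco-19 controls. A gap of this kind, all libraries lower, was seen in 14.4% of all genes. The log2 fold change was -0.71 ± 0.18 (95% interval -1.10 to -0.33), and its adjusted p was 0.113, in a comparison where only 0.275% of all genes were called. Of the 6 genes edgeR called 0, with 2 at an unadjusted p under 0.05. DESeq2 called Ptgs2 alone of the 6 (adjusted p = 0.00154), and 333 of all 14184 genes. The ratio of Ptgs2 to Ptgs1 per length was 2.06, 1.78 and 2.21 with Braco-19, against 3.22, 2.74 and 3.29 in its controls.

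Nos2 had 149, 59.0 and 128 CPM with Braco-19 and 124, 94.4 and 117 CPM in its controls, a log2 fold change of 0.00 ± 0.43 with a wide 95% interval of -0.93 to 0.94. Ptges had 280, 249 and 286 CPM with Braco-19 and 282, 256 and 277 CPM in controls, and its interval was narrow, from -0.16 to 0.16. Ptgs1 had 228, 198 and 218 CPM with Braco-19 and 254, 224 and 213 CPM in controls (-0.10 ± 0.07). Ptges2 is a low transcript in these libraries, with 18.6, 22.8 and 22.9 CPM with Braco-19 and 20.2, 15.4 and 17.0 CPM in controls (0.29 ± 0.12, adjusted p = 0.212). Ptges3 had 242, 234 and 226 CPM with Braco-19 and 224, 226 and 228 CPM in controls (0.05 ± 0.08). Among the pathway lists, Irf7 alone was called under Braco-19, at 21.5 ± 1.75 CPM against 14.8 ± 0.41 CPM in controls (0.54 ± 0.11, adjusted p = 0.0343), and it kept the call in 8 of 14 alternatives. In the transport and breakdown list edgeR and DESeq2 called 0 of 6 genes, with 1 at an unadjusted p under 0.05. At that unadjusted p there were also 10 of 27 inducers and 3 of 14 arginine and cofactor genes. Of the receptors there were 2 of 6, of the other terminal synthases 2 of 3 and of the Hsp90 partners 1 of 9. None of the 9 phospholipase and related genes or the 3 of the lipoxygenase branch passed it. The share of all genes passing that unadjusted p is not given here, so these counts have no baseline. Macrophage markers summed to 44.1 to 47.7 CPM with Braco-19 and 34.6 to 42.4 CPM in its controls, and their part in the value of Ptgs2 was not tested.

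The effects of the compounds were then set against each other as differences of log2 fold changes in the same model. Since doses are not in the labels, these compare the exposures as given. Over the 6 genes, 3 pairs of compounds gave 18 differences, each adjusted over all genes tested. The effect on Nos2 differed between PDS and Phen-DC3 by 2.99 ± 0.66 (adjusted p = 0.0104): 1.70 under PDS and -1.29 under Phen-DC3. The effect on Ptgs2 differed between PDS and Phen-DC3 by 1.38 ± 0.26 (adjusted p = 0.00419) and between PDS and Braco-19 by 1.67 ± 0.26 (adjusted p = 0.00144). The effect on Ptges differed between PDS and Braco-19 by 0.47 ± 0.11 (adjusted p = 0.00996). Of the 6 genes, 2 were called for PDS against Phen-DC3, where 20.2% of all genes were, and 2 for PDS against Braco-19, where 14% were. These 4 differences were called in each of the 20 alternatives run. The endothelial marker Egfl7 also differed in effect, by -0.969 ± 0.287 between PDS and Phen-DC3 and -0.998 ± 0.298 between PDS and Braco-19 (adjusted p = 0.0271 and 0.0362). Of 9 nucleus pulposus markers, 2 were called higher (Cdh2 and Sox9, 0.675 and 0.712) and 1 lower (Krt8, -0.611) between PDS and Phen-DC3, and 1 higher (Cdh2, 0.549) and 1 lower (Col2a1, -0.776) between PDS and Braco-19. Of 8 fibroblast markers, Lum was called higher between PDS and Phen-DC3 (0.613, adjusted p = 0.0451) and none between PDS and Braco-19, and no macrophage or smooth muscle marker was called for either. The part of these markers in the differences of Nos2, Ptgs2 and Ptges was not tested.

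Other differences were not called. For Nos2 between PDS and Braco-19 the difference was 1.70 ± 0.63 (adjusted p = 0.0883, 95% interval 0.33 to 3.06; called in 2 of 20 alternatives), and for Ptges between PDS and Phen-DC3 it was 0.26 ± 0.11 (adjusted p = 0.0967, 95% interval 0.03 to 0.48). The Ptges difference between PDS and Phen-DC3 was called after correction for gene length (0.41, adjusted p = 0.0196) and without PDS controls replicate 2 (0.34, adjusted p = 0.0361). Ptges2 differed in effect by -0.41 ± 0.17 between PDS and Braco-19 (adjusted p = 0.0969) and by -0.33 ± 0.16 between PDS and Phen-DC3 (adjusted p = 0.154). The first was called in 2 of 20 alternatives, when the groups compared were fitted alone (-0.43, adjusted p = 0.0364) and without Braco-19 replicate 1 (-0.50, adjusted p = 0.0459), and the second without replicate 3 of Phen-DC3 or of its controls (both -0.43, adjusted p = 0.0454 and 0.046). Over all genes, leaving out replicate 3 of Phen-DC3 gave 3927 calls and of its controls 4230, against 2862 as reported. No difference between Phen-DC3 and Braco-19 was called for the 6 genes: edgeR and DESeq2 called 0, and 0 had an unadjusted p under 0.05, with 0.0494% of all genes called. For Ptgs2, lower on average under both, the difference between Phen-DC3 and Braco-19 was 0.29 ± 0.25, with a 95% interval of -0.25 to 0.83. For Ptgs1 and Ptges3 the differences between any pair of compounds were 0.02 to 0.09, and their 95% intervals all lay between -0.21 and 0.30.

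**Figure D4:**
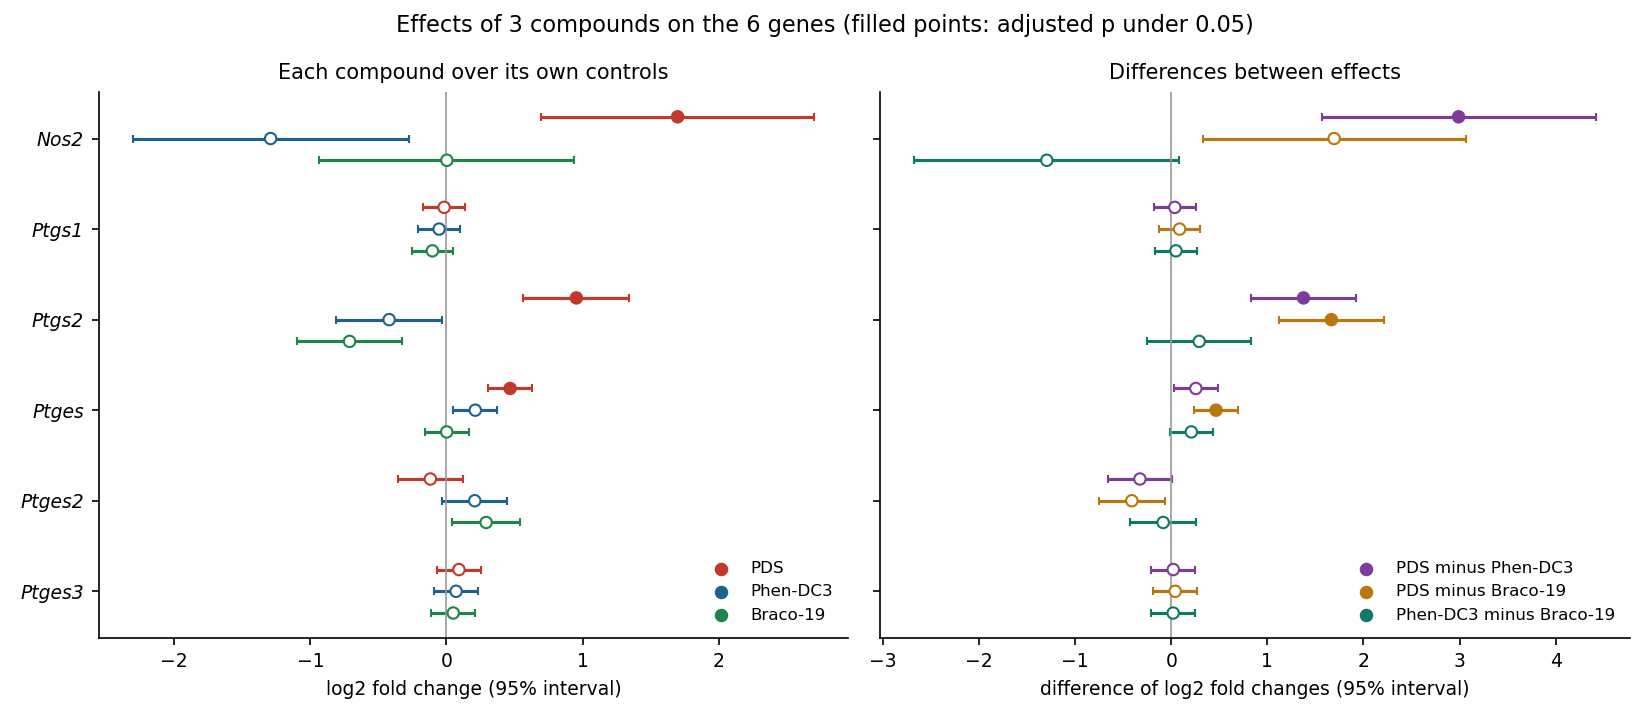
Left, log2 fold change of each compound over its own controls for the 6 genes. Right, how far 2 compounds differ in their effect. Bars are 95% intervals and filled points have an adjusted p under 0.05: Nos2, Ptgs2 and Ptges for PDS on the left, and Nos2, Ptgs2 and Ptges in 1, 2 and 1 of the contrasts with PDS on the right.

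Levels in the 3 control groups show where each compound started. PDS controls and Phen-DC3 controls had similar levels of Ptgs1, Ptges, Ptges2 and Ptges3, with log2 differences of 0.05 to 0.12 and overlapping libraries. Nos2 and Ptgs2 were lower in every PDS control library than in every Phen-DC3 control library, as for 13.1% of all genes. The log2 differences were -1.08 ± 0.46 for Nos2 (adjusted p = 0.169) and -0.58 ± 0.18 for Ptgs2 (adjusted p = 0.067). Of the 6 genes edgeR called 0 here, where 6.09% of all genes were called, with 2 at an unadjusted p under 0.05. DESeq2 called Ptgs2, and 1606 of all 14184 genes. Ptgs2 was also called without Phen-DC3 controls replicate 3 (-0.74, adjusted p = 0.0113). With that library left out, 2752 of all genes were called, against 864 as reported. Of 8 fibroblast markers tested, 3 were called lower in PDS controls than in Phen-DC3 controls and none higher. Lum had 173 ± 27.7 CPM in PDS controls and 281 ± 51.9 CPM in Phen-DC3 controls, Dcn 237 ± 25.7 CPM in PDS controls and 326 ± 48.2 CPM in Phen-DC3 controls, and Pdgfra 130 ± 9.05 CPM in PDS controls and 166 ± 9.13 CPM in Phen-DC3 controls. Their part in the values of Nos2 and Ptgs2 was not tested. So the means of the PDS and Phen-DC3 groups changed places: Nos2 averaged 79.6 CPM with PDS and 24.5 CPM in PDS controls, but 21.2 CPM with Phen-DC3 and 51.8 CPM in Phen-DC3 controls.

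Braco-19 controls stood apart from both. Ptgs2 averaged 173 ± 26.1 CPM in PDS controls and 260 ± 58.2 CPM in Phen-DC3 controls, against 1108 ± 161 CPM in Braco-19 controls, log2 differences of -2.68 ± 0.19 and -2.09 ± 0.19 (adjusted p = 6.53e-09 and 1.09e-07). Each Braco-19 library held more Ptgs2 than any library of the PDS and Phen-DC3 sets. Ptgs1 differed by -0.70 ± 0.07 and -0.75 ± 0.07 in the same comparisons, and Nos2 by -2.19 ± 0.47 and -1.11 ± 0.44. The E synthases went the other way, with Ptges higher by 0.61 ± 0.08 and 0.55 ± 0.08 and Ptges2 by 1.06 ± 0.12 and 0.94 ± 0.12 in PDS and Phen-DC3 controls. Ptges3 had 236 ± 20.5 CPM in PDS controls, 228 ± 20.5 CPM in Phen-DC3 controls and 226 ± 2.16 CPM in Braco-19 controls and was not called. As TPM, levels per length scaled to the same total in each library, some gaps changed. Ptges3 had 219 ± 15.7 TPM in PDS controls, 226 ± 17.9 TPM in Phen-DC3 controls and 298 ± 2.86 TPM in Braco-19 controls. Ptges had 509 ± 57.3, 523 ± 6.35 and 472.5 ± 22.4 TPM in the same order. The 5 of 6 genes called in each comparison compare with 73.3% of all genes for PDS controls and 69.5% for Phen-DC3 controls, so this share is near that of all genes.

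These gaps between control groups moved with gene length. The log2 differences of all genes between PDS and Braco-19 controls correlated with length at Spearman's rho of -0.496, a description across genes, which are not independent replicates. Once the trend with length was removed from each library, Ptgs2 still differed by -1.97 ± 0.16, Ptgs1 by -0.55 ± 0.07 and Ptges2 by 0.93 ± 0.12, all called. Nos2, with the longest model at 6681 bp, then differed by -0.82 ± 0.45 (adjusted p = 0.123) and Ptges, with the shortest at 1254 bp, by 0.04 ± 0.08 (adjusted p = 0.631). Ptges3 turned round to -0.34 ± 0.07 and was then called (adjusted p = 0.000416). Against Phen-DC3 controls the correction left Nos2 at 0.03 ± 0.43 (adjusted p = 0.965) and Ptges at 0.06 ± 0.08 (adjusted p = 0.508), so 2 of the 5 calls of each comparison depend on it. Levels of Nos2 in Phen-DC3 controls against Braco-19 controls also lost their call under upper-quartile scaling (-0.99, adjusted p = 0.0656), with no count filter (-1.08, adjusted p = 0.0682), and without Phen-DC3 controls replicate 2 or 3 or Braco-19 controls replicate 1 or 3 (adjusted p of 0.0802 to 0.138), and kept it in 6 of 13 alternatives in all. That scaling moved the median of all genes by 0.112 between PDS and Braco-19 controls and by 0.111 between Phen-DC3 and Braco-19 controls. Ptges3 was then called higher in PDS controls than in Braco-19 controls (0.17, adjusted p = 0.0476).

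**Figure D5:**
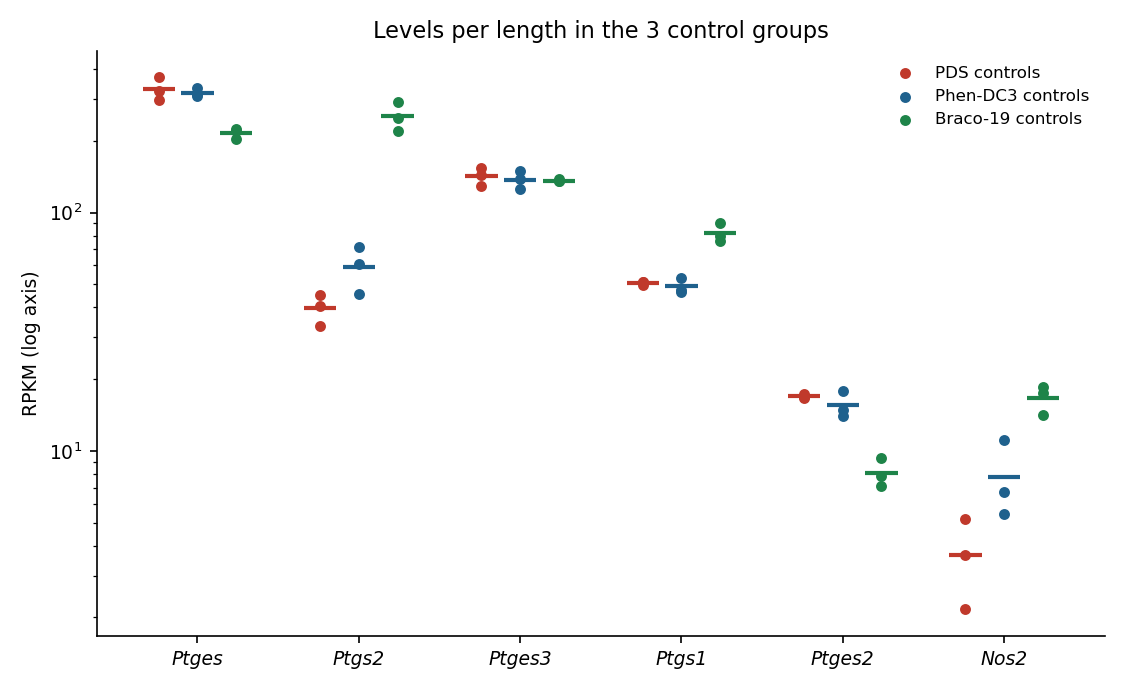
Level per length (RPKM, log axis) of the 6 genes in PDS controls, Phen-DC3 controls and Braco-19 controls. Points are libraries and lines are means of 3. On this scale, Ptgs2, Ptgs1 and Nos2 are highest in Braco-19 controls, Ptges and Ptges2 are lowest there, and Ptges3 is level across the 3 groups.

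Ordered by mean CPM over the 6 groups, Ptgs2 ran from PDS controls through Phen-DC3, Phen-DC3 controls, PDS and Braco-19 to Braco-19 controls. The first 3 of these overlapped with their neighbours in that order, and the last 3 were each apart from the group below. For Ptges the order ran from Braco-19 controls and Braco-19, which overlapped, through Phen-DC3 controls, PDS controls and Phen-DC3, which overlapped in turn, to PDS, which was apart from all. For Nos2 the single gap between neighbours lay between Phen-DC3 and PDS controls below and the other 4 groups above. Ptges3 showed no gap between any neighbours, and its group means stayed within 226 to 251 CPM.

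Across the 18 libraries, with each treatment and control pair centred on its own mean, the genes whose log2 CPM followed each enzyme most closely were listed from 8787 candidates. Libraries share their group, so these correlations are descriptions with no test. Centring on the pair keeps the difference between treatment and control, so a gene picked for a close correlation tends to share it. The fold changes and calls of the listed genes follow in part from that choice and are no separate result. Ptgs2 was followed by Itga8, an integrin subunit (r = 0.987), Grem1, a secreted BMP antagonist (0.968), and Bend6 (0.967). All 3 were called higher under PDS, at log2 fold changes of 0.62, 0.45 and 0.52, and lower on average but not called under Phen-DC3 (-0.36, -0.24 and -0.23) and Braco-19 (-0.49, -0.23 and -0.41). Ptges was followed by Egln1, an oxygen-sensing prolyl hydroxylase (0.903), Pdk1, a kinase that restrains pyruvate oxidation (0.902), and Reep4 (0.899). Under PDS these rose by 0.63, 0.57 and 0.32.

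Nos2 was followed by Bicral (0.866), Sipa1l1 (0.857) and Itga5, the fibronectin receptor subunit (0.850), which rose under PDS by 0.57, 0.45 and 0.53. Bicral was also called lower under Phen-DC3 (-0.49, adjusted p = 0.0354). Ptgs1 was followed by Adcy2, an adenylate cyclase (0.922), Plpp3 (0.840) and Lgals8 (0.838), and Ptges3 by Arf4 (0.877), Tceal8 (0.856) and Rsl24d1 (0.841), of which none was called under any compound. Ptges2 was followed by Abhd16a (0.942), Tmem256 (0.938) and Ndufs7, a subunit of respiratory complex I (0.935), the last called higher under Phen-DC3 (0.36, adjusted p = 0.0451). Among the 6 enzymes themselves, the closest pair was Nos2 and Ptgs2 (r = 0.639), and Ptgs2 ran against Ptges2 (-0.646).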

How the data were processed

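The authors deposited a table of raw counts, whole numbers of reads per gene in each of 18 libraries, with gene symbols, positions and model lengths. Per the submitters' processing notes the tools were CASAVA, HISAT2 and featureCounts 1.5.0-p3, with build, annotation and strand setting not given in the sources used here. Counts were filtered with filterByExpr by group, which left 14184 genes, and scaled by TMM in edgeR 4.0.16 (R 4.3.3, limma 3.58.1). A single robust quasi-likelihood model with 1 mean per group, 12 residual degrees of freedom and no replicate term was fitted to all 18 libraries, so the spread is pooled over the 6 groups. F-tests were two-sided, with Benjamini-Hochberg adjustment per comparison at 0.05. They were also run on counts simulated from the fitted spread, without the length trend or the gaps between control groups. That run checks the code and cannot show how the tests behave on these data. CPM used TMM-scaled totals, and RPKM divided CPM by the deposited gene lengths. Alternatives were RLE or upper-quartile scaling, other count filters, DESeq2 1.42.0, fits of the compared groups alone, a correction for gene length, a replicate term and leaving out each library. The genes and lists were chosen with earlier results of these data known. The text names the chosen genes, list genes called under a compound (at most 4 a list, by p), the highest marker of each cell type list and the 3 genes most correlated with each enzyme, among genes averaging 3 or more in log2 CPM. Genes named outside this rule were chosen after their values were seen. Reads carry no molecular identifiers, so counting error understates the true error. The share of all genes at an unadjusted p under 0.05 is not given, so counts by that rule have no baseline.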

Additional observations from a re-analysis of the deposited data

Results flagged for a closer look

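The difference between the effects of a pair of compounds was itself past the threshold for 4 of the 18 gene and pair combinations tested. Of the 6 genes, 2 were called for PDS minus Phen-DC3, where 20.2% of all genes were. For PDS minus Braco-19 it was 2 of 6, where 14% of all genes were called. Such differences were thus common over all genes. For Nos2, the effect of PDS minus that of Phen-DC3 was 2.99 on the log2 scale (adjusted p = 0.0104), with all 3 PDS libraries above their controls and all 3 Phen-DC3 libraries below theirs. For Ptgs2, the effect of PDS minus that of Phen-DC3 was 1.38 (adjusted p = 0.00419), and the effect of PDS minus that of Braco-19 was 1.67 (adjusted p = 0.00144). For Ptges, the effect of PDS minus that of Braco-19 was 0.47 (adjusted p = 0.00996).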

How the results depend on the processing

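How many of the 6 genes were called changed under at least 1 alternative in 8 of the 9 comparisons, Phen-DC3 minus Braco-19 being the exception. Between PDS and Braco-19 controls it was 6 under upper-quartile scaling and 4 under the length correction, against 5 as reported. DESeq2 called 2 of 6 for Phen-DC3, 1 for Braco-19 and 1 between PDS controls and Phen-DC3 controls, where edgeR called 0. Leaving out single libraries gave 2 to 3 for PDS, 0 to 2 for Phen-DC3, 0 to 1 between PDS and Phen-DC3 controls, 4 to 5 between Phen-DC3 and Braco-19 controls, and 2 to 3 for each of the differences of PDS from Phen-DC3 and from Braco-19. Correction for gene length turned Ptges3 round between PDS and Braco-19 controls and between Phen-DC3 and Braco-19 controls (both -0.34) and Nos2 between Phen-DC3 and Braco-19 controls (0.03).

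Counts over all genes moved more, and the cause was not tested. For PDS (1148 genes) fitting the compared groups alone gave 2030 and leaving out single libraries 570 to 882. For Phen-DC3 (1136), DESeq2 gave 2056, the groups alone 1, the length correction 47 and single libraries 0 to 3336, without Phen-DC3 controls replicate 2 and 3 at the ends. For Braco-19 (39), DESeq2 gave 333, the groups alone 730 and single libraries 1 to 160. Between PDS and Phen-DC3 controls (864), DESeq2 gave 1606, the groups alone 3, the length correction 468 and single libraries 3 to 2752. For PDS minus Phen-DC3 (2862) the length correction gave 1888 and single libraries 1456 to 4230. For PDS minus Braco-19 (1990) the groups alone gave 3213 and single libraries 912 to 2355. For Phen-DC3 minus Braco-19 (7), RLE gave 4, DESeq2 46, the groups alone and the length correction 0 each, and single libraries 0 to 15. Upper-quartile scaling gave 575 higher and 527 lower genes for PDS, against 728 and 420 as reported.

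Replicate numbers did not pair the libraries: same-number correlations were -0.036 to 0.064 for PDS, -0.251 to -0.033 for Phen-DC3 and 0.009 to 0.072 for Braco-19. No such block was fitted between control groups. A replicate block gave 587 genes for PDS, 1 for Phen-DC3, 2 for Braco-19, and 1161, 661 and 1 for the differences of PDS from Phen-DC3, PDS from Braco-19 and Phen-DC3 from Braco-19. It left Nos2, Ptgs2 and Ptges called under PDS. The difference between PDS and Braco-19 in Nos2 was called under the block (1.75, adjusted p = 0.0114) and by DESeq2 (1.69, adjusted p = 0.0407). Counts were lowest for Ptges2 and Nos2, at 260 and 242 in their lowest libraries, and Nos2 also had the widest spread between libraries.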
